A study of Mus musculus with 7 samples.

Results

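Low-count exon pieces in RNA of RAW264.7 cells and of their extracellular vesicles (EVs) were summed per transcript and compared across 7 libraries. A row of the deposited table whose name begins with Exon_ is here called an exon piece: it carries an Ensembl transcript ID and, as a rule, a piece number. The members are the exon pieces with at least 7 counts over the 7 libraries, without the 300 exon pieces of largest sum. They came to 38989 of 210777 exon rows in a table of 580839 rows, and they belong to 14977 of the 34462 transcripts that have an exon row. The members were chosen by measured values, their sums over all libraries, so the rule read the same counts as the results below but used no contrast between libraries. Just inside the upper limit stood a piece with a sum of 364.951 and just outside it a piece with 364.966. At the lower limit, 3269 pieces had a sum from 7 to under 8 and were kept, while 3606 pieces from 6 to under 7 were left out.

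RAW264.7 is a mouse macrophage line. The study asked what Dis3l2, an exoribonuclease, does to the RNA of cells and EVs. Whole-cell RNA came from cells with a non-silencing hairpin (shNS) and from cells with a hairpin against Dis3l2 (shDis3l2). EV RNA came from both lines and also from shDis3l2 cells holding 1 of 3 constructs: an empty vector (Vector), a Dis3l2 transgene that the hairpin does not target (Dis3l2r), or Dis3l2 with the catalytically inactive D389N change. All cells received doxycycline. EVs were banded in a sucrose gradient and digested with micrococcal nuclease, and whole-cell RNA was depleted of rRNA before library making. Each group had 1 library, so no difference between single libraries has a replicate check. Where 5 EV libraries are set against 2 cell libraries, or 3 EV libraries against 2, libraries of different genotypes stand in for replicates, and the p-values measure their spread.

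An exon is a part of a gene that stays in the RNA after splicing, and an intron is a part that splicing removes. Dis3l2 works from the 3′ end of an RNA towards the 5′ end and is known for degrading RNAs that carry a tail of uridines, among them faulty or truncated non-coding transcripts. Reverse transcriptases of the group II intron type copy structured RNA well, so such libraries are dominated by short structured RNAs and mRNA exons take a small share. EVs carry RNA of the cell inside a membrane, and a nuclease treatment removes RNA outside it.

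No gene names stand beside the transcript IDs, and 0 of the 14977 IDs were matched to a symbol in the reference tables used here. The lists fixed by gene symbol (macrophage and other cell type markers, RNA decay and the others) therefore have no result, the cell type and the knockdown of Dis3l2 were not checked, and no sequence or position is given. Of the members, 2 that were higher and 2 that were lower are named by ID, and the others are described by their rank and counts. None of the members has a row as a whole RNA: 0 of the 3639 transcripts with such a row have an exon row. In contrast, 12690 of the 14977 members also had an intron piece, and 9930 a UTR piece, that met the same rule.

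The members were spread thinly. Their median sum over the 7 libraries was 30.119 counts, with quartiles of 14 and 77 and a highest sum of 1904.056. A single piece made up 7395 members, 2 pieces made up 2687 and 3 or more made up 4895, with at most 55. The 4113 members with a sum of at least 70 held 72.6% of the counts. Transcripts with more exon rows were more often members: 18.8% of the 13178 transcripts with 1 exon row, 39.6% of those with 2 to 5, 65.9% of those with 6 to 10, 78.9% of those with 11 to 20 and 86.8% of those with more than 20. The median sum of members went from 17 counts with 1 exon row to 60 with more than 20, while per exon row it went from 17 to 1.94. A sum over more rows has more chances to pass the rule, so this order is a description of it.

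Member exon pieces held little of each library, and far less of the cell libraries than of the EV libraries. They came to 15356 counts in shNS cells and 40802 in shDis3l2 cells. The EV libraries held 217277 (shNS), 177369 (shDis3l2), 187954 (Vector), 168235 (Dis3l2r) and 184800 (D389N). The lowest EV library therefore held 4.12 times the member counts of the higher cell library, although the counts of all rows were higher in cells, at 72815988 and 67236700 against 24853797 to 41293626. The shNS cell library stands apart as the thinnest, and each result that rests on it is given with that in view.

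As a share of the counts of all rows, the members took 0.0211% of shNS cells (95% exact binomial interval 0.0208% to 0.0214%) and 0.0607% of shDis3l2 cells (0.0601% to 0.0613%). The EV shares were 0.560% (shNS), 0.566% (shDis3l2), 0.455% (Vector), 0.677% (Dis3l2r) and 0.517% (D389N). All 5 EV libraries lay above both cell libraries, with a mean of 0.555% ± 0.0813 (SD, n = 5) against a mean of 0.0409% in the cells, a ratio of 13.6. The exact two-sided permutation test over libraries gave p = 0.0952, the smallest that 5 against 2 libraries allow. The rule sums unscaled counts, and EV libraries held 94.3% of member counts, so the members were chosen mostly by their EV counts. With no minimum sum the ratio was 9.86. It also rests on leaving out the 300 largest exon pieces: with them it was 2.15 (exact permutation p = 0.286), because they held 0.732% of shDis3l2 cells and 0.0107% of shNS cells, against 0.226% to 0.464% of EV libraries. These intervals cover counting error only, and in bulk RNA fewer vesicles or cells of a kind and less RNA in each cannot be told apart.

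**Figure D1:**
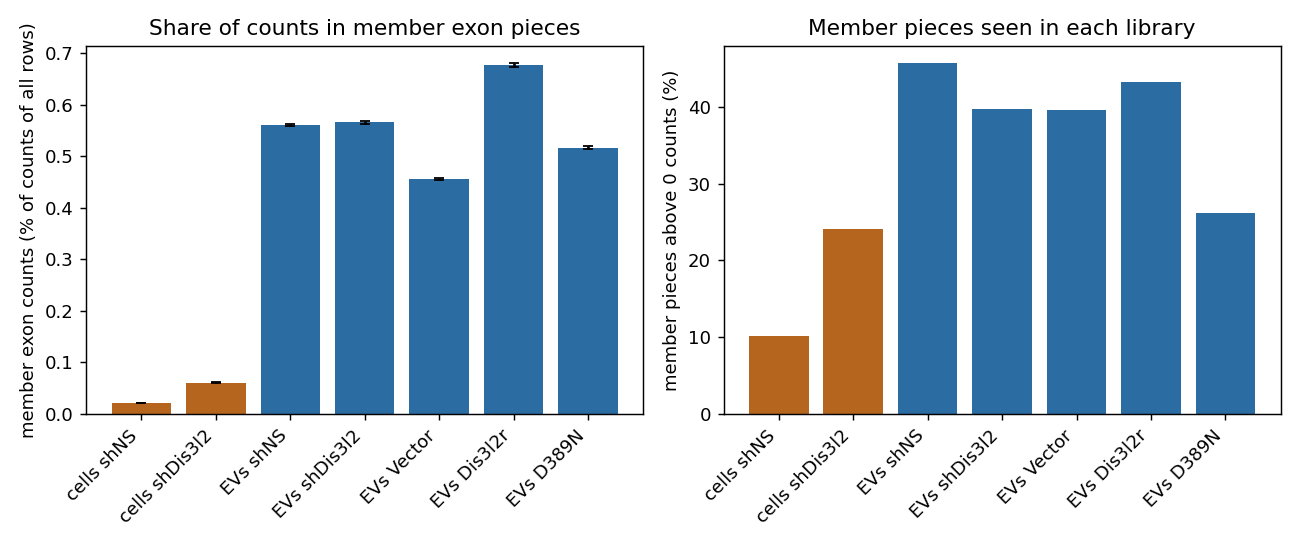
The left panel shows member exon counts as a percent of the counts of all rows (bars, with exact binomial 95% intervals) and the right panel shows the percent of the 38989 member pieces above 0, in 2 cell libraries (brown) and 5 EV libraries (blue), 1 library a bar. The EV bars on the left lie between 0.455% and 0.677% and the cell bars at 0.0211% and 0.0607%, while on the right the D389N EVs (26.2%) lie close to the shDis3l2 cells (24.0%).

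The other kinds of pieces showed which part of this gap the exons shared. UTR pieces that met the same rule took 10.4 times as large a share in EVs as in cells, and intron pieces 3.64 times. Intron pieces held 0.325% of shNS cells and 3.65% of shDis3l2 cells, against 5.75% to 10.9% of EV libraries. Within the same transcripts, member exon counts were 9.20% of the intron counts in shNS cells and 3.25% in shDis3l2 cells. The EV values were 14.2% (shNS), 15.5% (shDis3l2), 13.1% (Vector), 11.2% (Dis3l2r) and 14.0% (D389N). All 5 EV values lay above both cell values, by 1.31 on the log2 scale between means (exact two-sided permutation p = 0.0952, the smallest possible). EV libraries held 94.3% of the exon counts that chose the members, so the rule itself favours a higher ratio in EVs. The difference is therefore a description. Against UTR pieces of the same transcripts, exon counts were 89.9% and 100.1% in cells and 67.3% to 106.3% in EVs, and the compartments overlapped (difference of -0.13 on the log2 scale, exact permutation p = 0.667).

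EV libraries also differed from cell libraries in how counts were spread over exon pieces. A member piece above 0 had a median of 2.99 counts in shNS cells and 3 in shDis3l2 cells, against 9 in the shNS, shDis3l2 and Vector EVs, 8 in the Dis3l2r EVs and 14 in the D389N EVs. Because a rule on sums favours pieces with high counts, the same was read over all exon rows above 0, with no minimum. There, rows with 2 or fewer counts made up 55.2% in shNS cells and 54.8% in shDis3l2 cells, against 10.4% to 22.6% in EVs. Rows with 10 or more counts made up 6.25% and 4.11% in cells, 27.1% to 38.6% in the shNS, shDis3l2, Vector and Dis3l2r EVs, and 62.8% in the D389N EVs. The adapter carried a random 12-base sequence that allows duplicate reads to be removed, but whether they were removed is not given in the sources used here. Its part in these counts was not tested.

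**Figure D2:**
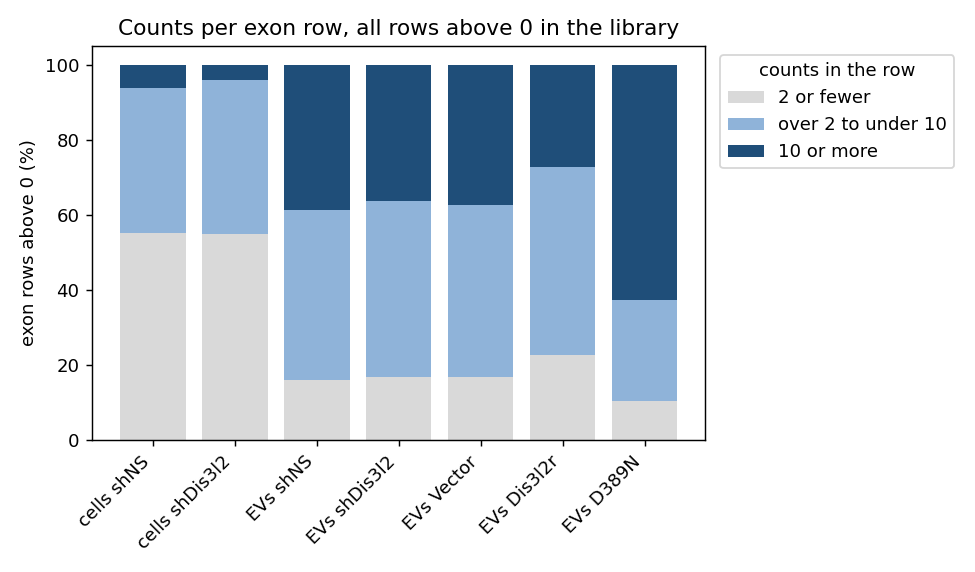
Stacked bars give the percent of exon rows above 0 in each library that hold 2 or fewer, more than 2 to under 10, or 10 or more counts, over all exon rows. Rows of 2 or fewer counts fill 55.2% and 54.8% of the cell bars, and rows of 10 or more fill 62.8% of the D389N EV bar.

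The EV libraries did not see the same exon pieces. Of the 38989 member pieces, 14050 (36.0%) were above 0 in 1 library alone and 465 (1.19%) in all 7. In the shNS EVs, 3724 pieces were above 0 in that library alone, with a median of 10.96 counts. The D389N EVs held 10226 member pieces above 0, fewer than the 15442 to 17804 of the other EV libraries, at a similar sum of counts. Summed per transcript, 1224 members (8.17%) were above 0 in all 7 libraries and 3307 (22.1%) in 1. Among the 4113 members with a sum of at least 70, 1177 were above 0 in all 7; 2237 were at 0 in shNS cells and 1220 in shDis3l2 cells, 601 in D389N EVs, and 224 to 282 in the other EV libraries.

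Between compartments, 7132 members (47.6%) had counts in EVs and in cells, 7587 (50.7%) in EVs and in neither cell library, and 258 (1.72%) in cells and in no EV library. All 5 EV libraries held 3129 members, of which 606 were at 0 in both cell libraries. A member at 0 was not detected among the member counts of that library, which does not show that it was absent. The cell libraries held few member counts although their counts over all rows were higher. A count of 0 allows up to 3 counts.

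The piece that led a transcript changed from library to library. For transcripts of at least 3 member pieces with 20 or more counts in both libraries of a pair, the highest piece was the same one in 26.1% to 33.5% of transcripts between 2 EV libraries (1223 to 1522 transcripts, median 6 or 7 pieces). Between both cell libraries it was the same in 27 of 43 transcripts (62.8%). Between a cell and an EV library it was the same in 24.4% to 36.4% of 64 to 122 transcripts. Over the 4113 members with a sum of at least 70, log2(CPM + 0.1), with CPM the counts scaled to the total of whole-RNA rows, of 2 EV libraries correlated with Pearson r of 0.119 to 0.354, those of the 2 cell libraries with 0.374, and those of an EV and a cell library with 0.0645 to 0.248. These describe transcripts that share libraries and depth, and in counts this sparse they are no finding. The 4 lowest r among EV pairs were those with the D389N library.

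Pieces at the end of the numbering were read more than their number gives. In transcripts with at least 5 exon rows, the piece of lowest number made up 7.26% of rows and held 23.6% and 17.0% of member counts in shNS and shDis3l2 cells. Its EV shares were 14.5% (shNS), 15.5% (shDis3l2), 20.3% (Vector), 16.6% (Dis3l2r) and 22.7% (D389N). The piece of highest number made up 7.55% of rows and held 8.26% to 11.5% of counts over the 7 libraries. The lowest-numbered piece was above its share of rows in every library, and the compartments overlapped. Whether the numbers run from the 5′ or the 3′ end, or along the chromosome, is not given in the sources used here, and piece lengths were not used.

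The 10 members of largest sum (1904.056 down to 1100.503 counts) were read in all 7 libraries, from 7 to 55 pieces each. The largest, of 20 pieces, had 37 counts in shNS cells, 42 in shDis3l2 cells, 464 in shNS EVs, 439.056 in shDis3l2 EVs, 331 in Vector EVs, 318 in Dis3l2r EVs and 273 in D389N EVs. In CPM it stood at 0.999 and 1.30 in the cells and at 13.0 to 23.8 in the EVs. Pooled over libraries it was 15.8-fold higher in EVs. The fourth, of 8 pieces, had 35 and 27 counts in the cells, 668.998 in shNS EVs, 230 in shDis3l2 EVs, 167.608 in Vector EVs, 150.174 in Dis3l2r EVs and 72 in D389N EVs. Its highest EV count was 9.29 times its lowest, so in this member a large sum did not go with an even level among EVs. In CPM its EV values ran from 3.44 to 28.3. In all 10, each EV library lay above both cell libraries in CPM, with pooled folds of 4.44 to 28.8. The same held for 61.0% of the members with a sum of at least 70 and 38.6% of all features. The 10 were picked by their sums, and EV libraries held 94.3% of member counts, so this is a description.

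Within shNS, EVs were set against cells, transcript by transcript. A member was called where both libraries together held at least 20 counts, the scaled ratio was at least 2 either way and its exact conditional binomial 95% interval excluded a ratio of 1. Of 3674 members tested, 3600 were higher in EVs and 9 lower, which is 98.2% called. Over all features tested in that pair (whole RNAs and exon, intron and UTR sums), 98.3% were called, 96.3% higher and 1.99% lower, so the members' share lay at the background. With counts of 0 set to 3, the members' median log2 ratio was 3.97, against 4.42 over all features. The shNS cells held 0 counts for 2033 of the 3674, and all of these were called higher.

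The pair within shDis3l2 was read in the same way. Of 3403 members tested, 3166 (93.0%) were higher in EVs and 57 (1.67%) lower. Over all features 65.4% were called, 50.4% higher and 15% lower. The shDis3l2 cells held 0 counts for 899 of the 3403, all called higher, and the EVs held 0 for 38 of the 57 called lower. Such members passed the minimum through the library where they are high and had to differ, so the members' share is a description. The members' median log2 ratio was 3.75 with 0 set to 3 counts, against 1.07 over all features. In the 2562 members with at least 20 exon and 20 intron counts, the exon median was 3.77 and the intron median of the same transcripts 1.03, and the exon ratio was the larger in 86.8%. In shNS the same comparison over 2667 members gave 4.03 for exons and 4.58 for introns, with the exon ratio the larger in 39.9%.

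The scale decides the direction of the first of these pairs. Scaled by member exon totals in place of whole-RNA totals, 347 members were higher and 465 lower in shNS (median -0.50), and 1459 higher and 358 lower in shDis3l2 (median 0.82). By construction, that scale removes the gap between the members' totals and shows only how single members deviate from it. The share over all features was not computed on it.

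**Figure D3:**
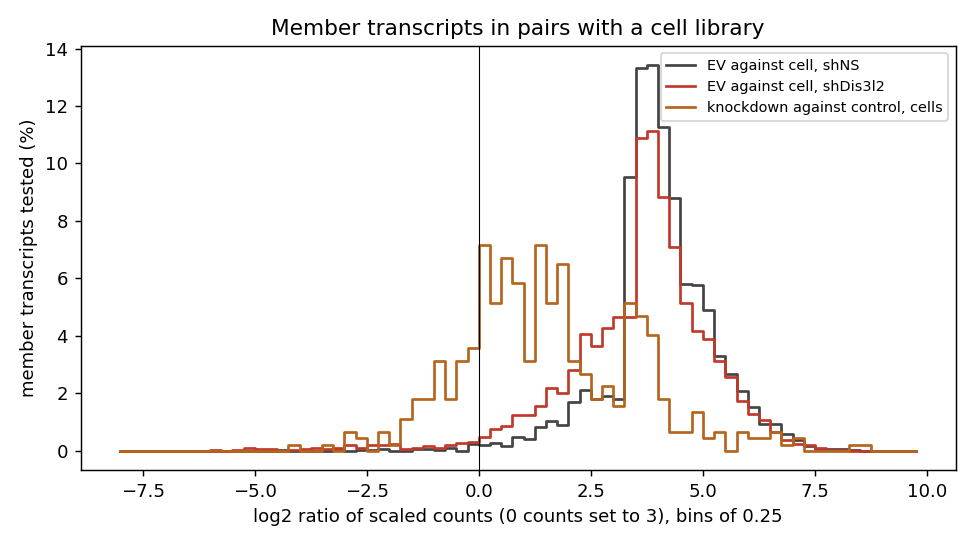
Step lines give the percent of tested member transcripts in bins of 0.25 of the log2 ratio of scaled counts, for EVs against cells in shNS (grey; 3674 members) and shDis3l2 (red; 3403) and for knockdown against control in cells (brown; 446). The medians lie at 3.97, 3.75 and 1.35, and 0 counts were set to 3.

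Over all 7 libraries, the 5 EV were fitted against the 2 cell libraries with the assigned Dis3l2 class as a covariate. With edgeR's quasi-likelihood test at a Benjamini-Hochberg adjusted p under 0.05, 13 of 4115 members were higher in EVs and 0 lower, beside a background of 2.73% called either way (1.79% higher, 0.94% lower). At an unadjusted p under 0.05 stood 2087 members, and 4073 had a fitted log2 difference above 0. For both of these, the share over all features was not computed. The fitted median was 4.45 for members, 4.36 for transcripts of the 300 largest pieces, 4.38 for UTR sums, 1.67 for intron sums and -1.98 for whole RNAs. With members at 0 in both cell libraries (841 of the 4113 with a sum of at least 70) set to 3 counts over both, the median pooled ratio was 4.22 on the log2 scale (quartiles 3.28 and 4.94). In 2510 of those 4113 (61.0%) each EV library lay above both cell libraries, against 38.6% over all features. In 3 each EV library lay under both, against 1.48%. EV libraries held 94.3% of member counts, so members reached the minimum mostly through them, and these shares are a description.

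The fit turned on single libraries. Without shNS cells the members' median fitted log2 difference was 3.95, against 1.23 over all features. Without shDis3l2 cells it was 6.50, against 7.08 over all features. Both of these fits assume that the lone cell library varies like the EVs, so no result is drawn from their calls. Without any 1 of the 5 EV libraries 0 members were called by edgeR, beside 1.20% to 1.58% over all features. In those fits 1321 to 1565 members stood at an unadjusted p under 0.05, with no share over all features computed. The DESeq2 Wald test on the same scale called 2721 (2720 higher, 1 lower), beside 35.4% over all features (34% higher, 1.4% lower).

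The 13 called members were above 0 in all 5 EV libraries, with 23.574 to 166 counts each, and 10 of them were at 0 in both cell libraries. The other 3 had 1 count over both cell libraries. All 13 thus passed the minimum sum through the EV libraries, where they are high, and their count and differences are a description. Their fitted log2 differences ran from 8.03 to 9.93 and their adjusted p-values (edgeR) from 0.0351 to 0.0498, and they held 1 to 17 member pieces. Their sums were 251 to 576.261 counts, below those of the 10 largest members.

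ENSMUST00000032597 had the smallest adjusted p among them. It had 0 counts in both cell libraries, 114 in shNS EVs, 62 in shDis3l2 EVs, 89 in Vector EVs, 84 in Dis3l2r EVs and 134 in D389N EVs. Every EV library was above both cell libraries, and its highest EV count was 2.16 times its lowest. Pooled, it was at least 109.9-fold higher in EVs, taking 3 counts over both cell libraries as the floor. The fitted log2 difference was 9.93 (SE 1.99, edgeR adjusted p = 0.0351), and the adjusted p was 0.0818 to 0.134 without any 1 EV library. All 4 of its exon rows were members, and their order changed: piece 0 led in shNS EVs with 52 counts and was at 0 in Vector and D389N EVs, where pieces 2 (40 counts) and 1 (57 counts) led. Its intron rows held 18 counts in shNS cells, 5 in shDis3l2 cells, 11 in shDis3l2 EVs and 0 in the other EVs, so more intron counts lay in cells than in EVs while its exon counts lay in EVs.

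Members higher in cells were few. ENSMUST00000112706 had the largest fall from cells to EVs in shNS, with 101 counts in cells and 0 in EVs. It had 171 counts in shDis3l2 cells, 0 in shDis3l2 EVs, 31 in Vector EVs, 8 in Dis3l2r EVs and 6 in D389N EVs. Both cell libraries lay above every EV library in CPM, at 2.73 and 5.29 against at most 1.23. Pooled, it was 8.86-fold higher in cells, but the fit over 7 libraries did not call it (log2 difference -3.30, SE 1.62, edgeR adjusted p = 0.216). Most cell and EV counts came from different pieces: piece 4 held 99 and 171 counts in the cells and 0 in all 5 EV libraries, while pieces 2 and 5 held all Vector and D389N EV counts, 3 of the 8 Dis3l2r EV counts and none of the cell counts. Piece 3 held the other 5 Dis3l2r EV counts and 2 counts in shNS cells. In the shNS pair, other rows of this transcript went the opposite way. Its intron rows held 3 counts in cells and 25.808 in EVs, and its UTR rows 8 and 42. In the shDis3l2 pair, its intron rows held 35.909 counts in cells and 5.469 in EVs, and its UTR rows 0 and 6.

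ENSMUST00000151376 had the largest fall in shDis3l2, with 293.468 counts in cells and 0 in EVs. It had 0 counts in shNS cells, shNS EVs and Vector EVs, 24.282 in Dis3l2r EVs and 1.13 in D389N EVs. The shDis3l2 cell library thus stood alone, at 9.07 CPM against at most 1.81. The fit did not call it (log2 difference -6.52, SE 3.51, edgeR adjusted p = 0.254). Its intron rows went the same way between the cell libraries, with 8795.904 counts in shDis3l2 cells and 4.03 in shNS cells. In EVs they held 235.304 to 1191.699 counts and did not follow the exon. They held 1191.699, 446.04 and 625.866 counts in shNS, shDis3l2 and Vector EVs, where the exon count was 0.

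**Figure D4:**
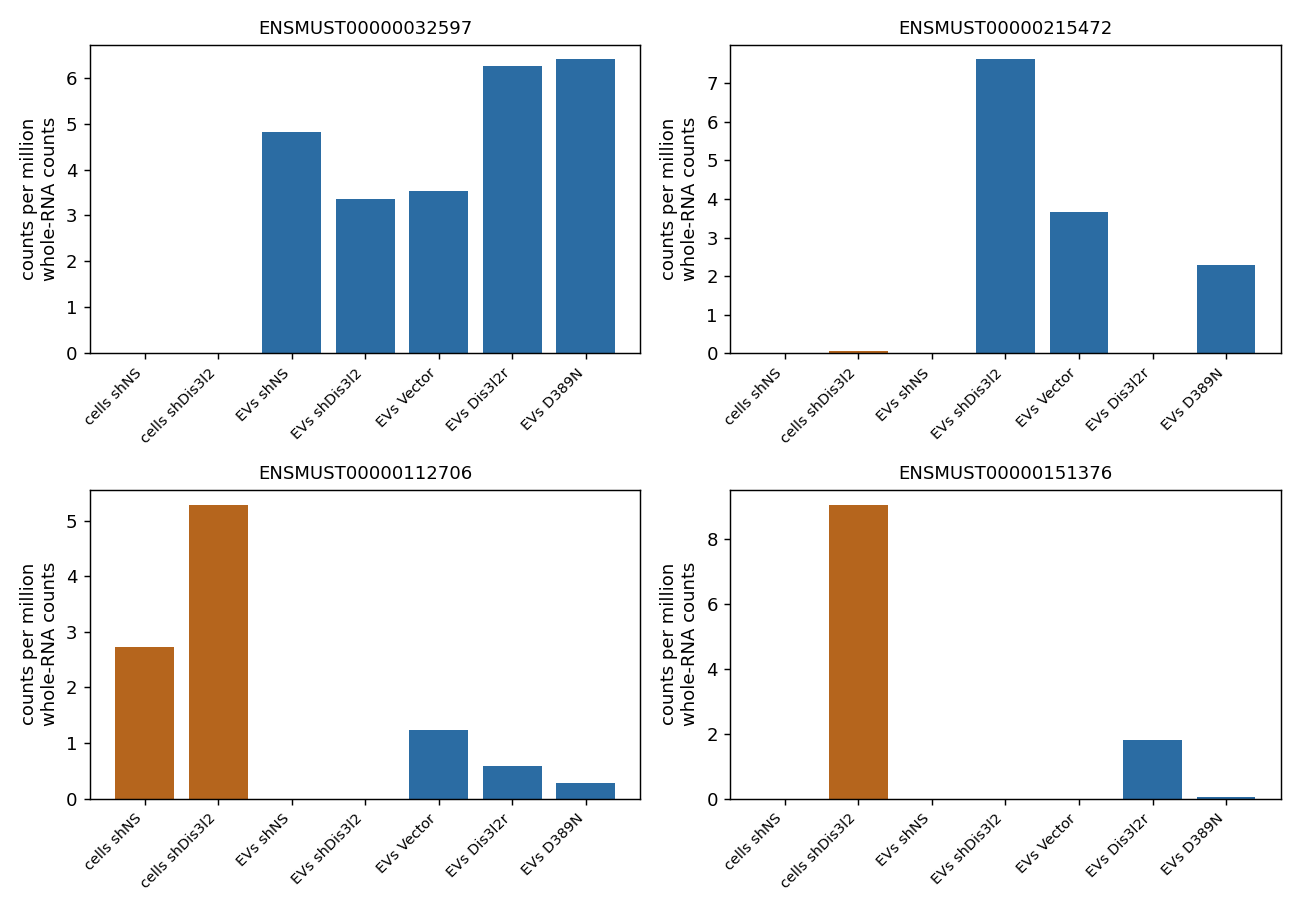
Bars give CPM (scaled to whole-RNA counts) for the 4 named transcripts in 2 cell libraries (brown) and 5 EV libraries (blue), 1 library a bar, each panel with its own axis from 0. ENSMUST00000032597 is at 0 in both cell libraries, ENSMUST00000215472 is at 0 in shNS and Dis3l2r EVs, and the other 2 are highest in shDis3l2 cells.

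Knockdown against control in cells could be read for few members. Of 446 tested, 239 (53.6%) were higher in shDis3l2 cells and 21 (4.71%) lower, beside a background of 91.8% called (90.3% higher, 1.58% lower). The members' median log2 ratio was 1.35 with 0 set to 3 counts, against 4.26 over all features, so the members' ratio between these 2 libraries was the smaller. In 264 members with enough intron counts, the exon median was 1.39 and the intron median 2.67, and the exon ratio was the larger in 28.8%. Scaled by member exon totals, 90 were higher and 174 lower (median -0.62), and the share over all features was not computed on that scale. This is 1 library against 1, and the control held 15356 member counts.

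A small set of members held most of their counts in shDis3l2 cells. In 21 members with a sum of at least 70, chosen after their values were seen, that library held more than 50% of the 7-library sum. They came to 9.56% of its member counts, with a highest value of 635.043. Of their values above 0 there, 94.4% were not whole numbers, against 6.21% over all members with a sum of at least 70 in that library. Salmon gives such values where reads could belong to more than 1 row, so the split of reads among these rows is uncertain. Of the 21, 14 also had a piece among the 300 largest, and 1 was at 0 in all other libraries. ENSMUST00000151376 is among the 21, and so is ENSMUST00000112706, which had 101 counts in shNS cells. No member met the same criterion in shNS cells, and 48 to 193 did in single EV libraries, with 4.10% to 9.40% of values not whole.

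Between shDis3l2 and shNS EVs, members were called in both directions. Of 5491 tested, 1574 (28.7%) were higher and 1344 (24.5%) lower with knockdown, beside a background of 44.7% called (21% higher, 23.8% lower). The median log2 ratio was 0.14, against -0.05 over all features. The split turned to 1384 higher and 1508 lower with member exon totals as the scale, so no direction is given for the members as a whole. For this and the other EV pairs, shares over all features were not computed with member exon totals or other alternative scales.

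The rescue was read against the empty vector. Of 5189 members tested, 1665 (32.1%) were higher and 1016 (19.6%) lower in Dis3l2r than in Vector EVs, beside 57.5% called over all features (45.6% higher, 11.9% lower). The median was 0.32, against 0.87 over all features. With member exon totals it was -0.13, with 1221 higher and 1428 lower.

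The inactive mutant gave the largest share of called members among the EV pairs. Of 5341 tested, 2221 (41.6%) were higher and 1148 (21.5%) lower in D389N than in Vector EVs, beside 56.2% over all features (39.9% higher, 16.3% lower). The median was 0.65, against 0.66 over all features, and with member exon totals 1713 were higher and 1480 lower. Both comparisons share the Vector library. D389N against Dis3l2r gave 1880 higher (35.8%) and 1285 lower (24.4%) of 5256, beside 53.4% (23.6% higher, 29.8% lower), and the split turned to 1467 and 1625 with the totals of all rows as the scale. The D389N library is the one with fewer pieces above 0 and more counts in each, and its part in these calls was not tested.

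Vector EVs and parental shDis3l2 EVs, neither with a Dis3l2 transgene, served as a yardstick. Of 5157 members tested, 1092 (21.2%) were higher and 1613 (31.3%) lower in Vector EVs, which is 52.5% called, beside 43.8% over all features (17.5% higher, 26.2% lower). Knockdown called 53.1% of members and rescue 51.7%, each within 1 percentage point of that pair of libraries with the same knockdown. With member exon totals the split of the yardstick pair turned to 1371 higher and 1287 lower. In each of the 5 EV pairs, 288 to 626 tested members were at 0 in the second library and 306 to 686 in the first. The called members are thus partly transcripts read in 1 library of a pair and not in the other, in either order.

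**Figure D5:**
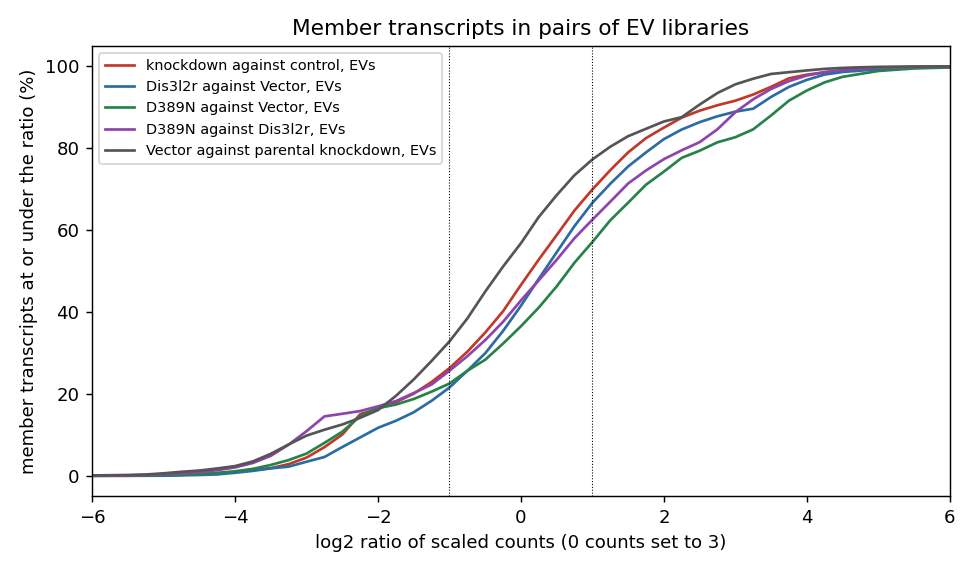
Lines give the cumulative percent of tested member transcripts against the log2 ratio of scaled counts in 5 pairs of EV libraries (5157 to 5491 members each; 0 counts set to 3), with dotted lines at 2-fold either way. The lines are spread about 0 with medians from -0.29 (Vector against parental knockdown) to 0.65 (D389N against Vector).

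The 3 EV libraries assigned to the class without active Dis3l2 (shDis3l2, Vector and D389N) were fitted against the 2 assigned to the class with it (shNS and Dis3l2r). The edgeR quasi-likelihood test called 0 of 3902 members at an adjusted p under 0.05, beside a background of 0.00333%. At an unadjusted p under 0.05 (edgeR) stood 61 members (1.56%), with no share over all features computed. DESeq2 called 5 (4 higher and 1 lower without active Dis3l2), beside 0.526% (0.35% higher, 0.177% lower). The members' median log2 difference was 0.12, against -0.23 over all features. Of 3900 members with an EV sum of at least 70, 395 (10.1%) had all 3 libraries without active Dis3l2 above both with it, against 7.71% over all features, and 351 (9%) had all 3 under both, against 17.6%. In 15 members the class with active Dis3l2 was at 0 in both libraries and the other class above 0 in all 3, beside 0.297% over all features. The reverse held for 1 member, beside 0.164%. The 15 had sums of 70 to 282.306 counts, and 4 of them were a single piece.

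ENSMUST00000215472, with 1 exon row, had the smallest p in that fit among members higher without active Dis3l2. It is also the largest of the 15. It had 140.303 counts in shDis3l2 EVs, 92.003 in Vector EVs and 48 in D389N EVs, and 0 in shNS and Dis3l2r EVs. In cells it had 0 counts for shNS and 2 for shDis3l2. All 3 libraries without active Dis3l2 were above both with it. Pooled, it was at least 64.5-fold higher without active Dis3l2, taking 3 counts over both other libraries as the floor. The fitted log2 difference was 9.58 (SE 1.47), and the edgeR adjusted p of 0.505 did not pass. With DESeq2 the adjusted p was 9.34e-05, and in edgeR with every member kept it was 1.75e-05. The transcript was picked for its small p and passed the minimum sum through the 3 libraries where it is high, so these values support nothing further. Its UTR rows did not follow the exon: they held 16.763 counts in shNS EVs, 17.101 in shDis3l2 EVs, 2.435 in Dis3l2r EVs and 0 in Vector and D389N EVs.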

How the data were processed

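The authors deposited 1 table of estimated counts (expected counts, which need not be whole) for 7 libraries, not scaled between libraries. The tools named per the submitters' processing notes are Salmon, Novoalign, UMI-tools and cutadapt, with the builds mm10 and GRCm38. Their versions and order, and any deduplication, were not given in the sources used here. Depth was 24853797 to 72815988 counts over all rows and 13439408 to 37041326 on whole-RNA rows. Exon rows were named by their Exon_ prefix.

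Member rows were summed per transcript and rounded for intervals and fits. The 8 pairs of single libraries were compared as log2 ratios, with exact conditional binomial 95% intervals and no test. Pairs of EV against cell libraries were scaled by whole-RNA totals, and the others by those totals times TMM (trimmed mean of M values) factors. Fits used edgeR 4.0.16 (glmQLFit, glmQLFTest) over features that do not overlap: whole RNAs, member sums, transcripts of the 300 largest exon pieces, intron sums, and UTR sums of transcripts with no whole-RNA row. A feature needed a sum of at least 70 over the fitted libraries, and p-values were adjusted over all features. The EV against cell fit had 4 residual degrees of freedom and the class fit 3. The class was assigned from genotype and is not stated in the labels. Both fits were run on simulated data. Those had a smaller spread between libraries than the real data, so they do not show how the fits perform on sparse members. Fits ran in R 4.3.3 with DESeq2 1.42.0 and limma 3.58.1. Intervals and sums ran in Python 3.11.15 with scipy 1.17.1, pandas 2.3.3 and numpy 2.4.6, and plots in matplotlib 3.10.9.

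The members, lists and comparisons were chosen with earlier results of these data known. The rule for names took the 10 largest members, the 5 largest ratios each way in each pair and the 5 smallest adjusted p each way in each fit, with at most 2 transcript IDs higher and 2 lower. Which of these carry an ID was settled after values were seen: the smallest adjusted p in each fit for the higher ones, the largest fall in each EV against cell pair for the lower. Alternatives were other scalings, filters, DESeq2, equal rows counted once and leaving out each library. Gene names were not matched, so symbol lists were not analysed here.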

Additional observations from a re-analysis of the deposited data

Results flagged for a closer look

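Among the 5 EV libraries, D389N had a median of 14 counts per member piece above 0, against 8 or 9 in the others, a gap that is a larger part of the range than a 95% Dixon limit for 5 samples allows. Chance passes that limit in about 1 of 20 groups.

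Knockdown went in opposite directions in cells and EVs for 3 measures of the members; with 1 library a group these differences were not tested. Exon counts relative to intron counts of the same transcripts fell by 1.50 on the log2 scale in cells and rose by 0.12 in EVs. Exon counts relative to UTR counts were 0.16 higher in cells and -0.19 in EVs on the log2 scale. The share of member counts in the 10 largest members of each library was 0.61 higher in cells and -0.26 in EVs.

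The exon to UTR ratio also differed between the lines, untested: EV against cell was 0.24 on the log2 scale in shNS and -0.10 in shDis3l2.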

How the results depend on the processing

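The labels give no replicate numbers to pair libraries by; cells and EVs were paired only by line. With a minimum of 100 counts far fewer members can be tested. EV against cell called 258 of 260 in shNS and 235 of 236 in shDis3l2, and knockdown in cells 19 of 22. Knockdown in EVs called 227 of 756, Dis3l2r against Vector 208 of 650 and D389N against Vector 334 of 815. D389N against Dis3l2r called 240 of 637 and Vector against parental knockdown 233 of 711. At this minimum the share over all features was not computed. With member exon totals as the scale, the EV against cell pairs called 812 of 3674 in shNS and 1817 of 3403 in shDis3l2. For these pairs the share over all features was not computed on that scale. The EV against cell fit called 2 on it, beside 1.70% over all features. That fit called 6 with TMM over all features (background 1.77%), 3 with filterByExpr (1.73%) and 37 with a sum of at least 7 (1.63%). With DESeq2 it called 2721 (35.4%). On the 4 parental libraries with the line as covariate it called 0 (1.31%). There, 0 members had an unadjusted p under 0.05 (edgeR, 1 residual degree of freedom). Leaving out single libraries gave 0 to 1854. The count was 0 without any 1 EV library, beside 1.20% to 1.58% over all features. Counts above 0 came only from the fits without 1 of the cell libraries. Those assume that the lone cell library varies like the EVs, so no result is drawn from their counts. The class fit called 5 with DESeq2 (background 0.526%) and 1 with a sum of at least 7 (0.234%). It called 0 each time 1 of the 3 libraries without active Dis3l2 was left out. Counting rows of equal counts once (22180 member rows have such a partner, 460 of them above 0 in at least 3 libraries) kept each pair's count of calls within 1.5 times, although the members lower with knockdown in EVs went from 1344 to 856; a narrower form, for the 460 only, was added after seeing the data and also stayed within 1.5 times. Except for the construction of the minimum, the fewer libraries and the member scale, the cause was not tested. Beyond the turns given with each pair, knockdown in EVs had 1401 higher and 1491 lower members with the totals of all rows and 1392 and 1498 with DESeq2 size factors, and Vector against parental knockdown had 1369 and 1288 with DESeq2 size factors. The 15356 member counts of shNS cells limit what could be read there.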
